A study of Mus musculus with 12 samples.

Results

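The aldehyde dehydrogenases described here are 10 genes of 40481 in the deposited table: Aldh1a1, Aldh1a7, Aldh1b1, Aldh2, Aldh3a2, Aldh3b1, Aldh6a1, Aldh7a1, Aldh9a1 and Aldh18a1. The table holds 21 genes whose symbol starts with Aldh. The family was chosen from the levels of Aldh1a1, which marked the libraries of adult marrow in an earlier look at the same values, so the contrast of marrow with fetal liver chose the members and is given below as a description, without a test. The contrast of genotypes was not the ground for choosing them and was tested. The members and the related lists below were still chosen with earlier results of these data known. All 10 genes passed the filter on low values (at least 1 CPM, a gene's reads scaled to its library's total, in at least 3 of 12 libraries), but Aldh1a1 and Aldh1a7 reached 1 CPM in bone marrow libraries only, and Aldh3b1 mainly in ETV6-RUNX1 fetal liver.

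RNA was sequenced from mouse hematopoietic stem cells (HSCs) in 4 groups of 3 libraries. The cells were wild type (WT) or carried the inducible fusion of ETV6 with RUNX1 (iE/R in the labels, ETV6-RUNX1 here), a fusion known from childhood B-cell leukemia. Each genotype was sampled from fetal liver at E14.5 (mid-gestation) and from bone marrow at 8 weeks of age. After sorting, the cells of every group, WT included, spent 3 days in a culture that expands HSCs, with doxycycline at 1 µg/mL. All values below are therefore of cultured, doxycycline-exposed cells and not of freshly isolated ones. The promoter that drives the fusion, how many animals each library holds and their sex are not given in the sources used here, so p-values measure the spread between these libraries, which may be technical.

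Aldehyde dehydrogenases oxidize reactive aldehydes to carboxylic acids with NAD or NADP. Some clear aldehydes made by metabolism or from alcohol and lipids, which can crosslink DNA, some make signals such as retinoic acid, and others carry out fixed steps of amino acid or carnitine metabolism. High aldehyde dehydrogenase activity, read with a fluorescent substrate, has long been used to enrich primitive blood cells, and loss of Aldh2 together with Fanconi anemia repair is known to damage HSCs.

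The libraries held 32.3 to 64.5 M reads each. A floor of 3 reads, at or under which a gene counted as not detected, came to 0.0465 to 0.0928 CPM. Floors cover counting error only. All 12 markers of HSCs and progenitors were at 1 CPM or more in each of the 4 groups, while the hepatocyte genes Serpina1a and Fgb were at 0 in all 12 libraries and the summed 12 hepatocyte markers, led by Afp, were at 16.9 to 40.2 CPM. Summed megakaryocyte markers (9 genes, led by Pf4) were 6977 to 7533 CPM in ETV6-RUNX1 fetal liver and 2961 to 4479 CPM in WT fetal liver, against 334 to 1930 and 1174 to 1638 CPM in the marrow groups. Summed erythroid markers (12 genes, led by Hbb-bt) were 1460 to 2232 CPM in ETV6-RUNX1 and 732 to 1013 CPM in WT fetal liver. Summed markers of mast cells and basophils were 222 to 286 CPM in ETV6-RUNX1 against 80.8 to 112 CPM in WT fetal liver. These fetal sums were nearly all Gata1, with means of 237 and 91.7 CPM, and 3 and 2 of the 10 genes reached 1 CPM. In marrow the sums went the other way, at 18.1 to 39.9 CPM in ETV6-RUNX1 against 42.5 to 56.8 CPM in WT. Endothelial markers (led by Egfl7) were 304 to 369 CPM in ETV6-RUNX1 against 108 to 132 CPM in WT fetal liver. Neutrophil and granule markers (led by Prtn3) were lower in ETV6-RUNX1, at 37.4 to 55.2 against 238 to 312 CPM in fetal liver and 103 to 128 against 155 to 367 CPM in marrow. Macrophage markers, nearly all Cd68, were 102 to 113 against 40.8 to 48.9 CPM in fetal liver and 85.9 to 106 against 40.3 to 58.3 CPM in marrow. In bulk RNA, fewer cells of a type and less RNA per cell cannot be told apart. The summed level of 4 Y-linked genes was 64.6 to 119 CPM in WT and 198 to 220 CPM in ETV6-RUNX1 fetal liver, without overlap, and 229 to 288 and 268 to 389 CPM in the marrow groups. Xist, which marks female cells, was 54.4 to 89.3 CPM in WT and 51.7 to 70.1 CPM in ETV6-RUNX1 fetal liver, with overlap. It was 0.175 to 0.324 CPM in WT and 0.216 to 1.27 CPM in ETV6-RUNX1 marrow. The sources thus differed in Xist, and the part of sex composition in the contrast of sources was not tested. Processed pseudogenes held 1.33% to 2.74% of the reads. WT bone marrow replicate 1 had 2.39% against 1.72% and 1.81% in the other two of its group, ETV6-RUNX1 fetal liver replicate 3 had 2.06% against 1.5% and 1.33%, and the WT fetal liver libraries spread over 1.77%, 2.18% and 2.53%.

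The 5′ flanks of Aldh1a1 and Aldh1a7 are shown because these neighbours on chromosome 19 were the members that reached 1 CPM in marrow libraries only. That of Aldh9a1 is shown because this gene fell with the fusion in both sources. The sequences are the 250 bases before a RefSeq transcript start on GRCm38.p6, written in the direction of transcription. Capitals mark matches, on either strand, to 4 motifs. They are TGTGGT, which is the core bound by RUNX factors, the CCAAT box, the motif AGATAA that is bound by GATA factors, and the TATAAA box. For Aldh1a1 the later of 2 RefSeq starts is shown (chr19:20601718-20601967, plus strand), which lies within the annotated gene. The window of the earlier start (chr19:20492333-20492582) has no match to the 4 motifs. The Aldh1a7 window is chr19:20727557-20727806 on the minus strand and the Aldh9a1 window is chr1:167349741-167349990 on the plus strand.
Aldh1a1: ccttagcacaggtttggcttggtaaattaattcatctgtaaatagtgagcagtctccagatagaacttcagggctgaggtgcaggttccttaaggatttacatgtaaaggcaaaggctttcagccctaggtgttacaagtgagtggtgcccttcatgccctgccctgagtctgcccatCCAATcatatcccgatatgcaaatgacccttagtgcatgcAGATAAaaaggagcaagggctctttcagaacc
Aldh1a7: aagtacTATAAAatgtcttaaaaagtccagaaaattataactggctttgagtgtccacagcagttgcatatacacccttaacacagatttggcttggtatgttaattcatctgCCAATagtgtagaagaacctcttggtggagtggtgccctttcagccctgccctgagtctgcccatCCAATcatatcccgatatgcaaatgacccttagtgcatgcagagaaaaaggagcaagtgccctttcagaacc
Aldh9a1: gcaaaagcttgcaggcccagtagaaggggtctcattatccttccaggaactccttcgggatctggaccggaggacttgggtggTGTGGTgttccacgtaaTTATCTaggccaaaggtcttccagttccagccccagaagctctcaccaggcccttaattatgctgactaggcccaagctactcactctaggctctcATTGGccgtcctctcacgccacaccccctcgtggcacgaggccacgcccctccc
Over the last 80 bases before the start, the Aldh1a1 and Aldh1a7 windows were identical at 77 positions (96.2%), with an unbroken run of 65. Both hold a CCAAT match 72 bases before the start. The Aldh1a1 window has an AGATAA match at 32 bases, and the Aldh1a7 window has a TATAAA match at 244 bases and another CCAAT match at 137 bases. Aldh9a1 is the only one of the 3 with a TGTGGT match, 167 bases before its start. Among windows not shown, that of Aldh3b1, which rose in fetal liver, has a TGTGGT match at 83 bases. A window of Aldh6a1, which was not called, has it at 122 bases. Such letters are common: among 32851 RefSeq promoter windows of this length, TGTGGT occurred in 14%, TATAAA in 12.4%, CCAAT in 33.8% and AGATAA in 10%. A match describes the letters and is not evidence of binding. RefSeq entries were found for 8 of the 10 members, and not for Aldh2 or for Aldh7a1, the other member that fell in both sources.

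Per exon length, Aldh2 and Aldh9a1 were the leading members in all 4 groups, followed by Aldh18a1 and then Aldh7a1. Levels between genes are given as CPM per kilobase of annotated exon (CPM per kb). In WT bone marrow Aldh2 had 76.4 ± 42.1 CPM per kb (SD, n = 3), Aldh9a1 74.6 ± 4.74, Aldh18a1 34.8 ± 8.75 and Aldh7a1 22.6 ± 1.48. The libraries of Aldh2 and Aldh9a1 overlapped in WT bone marrow and in WT fetal liver, so that their order is not resolved there. In ETV6-RUNX1 marrow Aldh2 had 116 ± 27.5 and Aldh9a1 50.7 ± 5.45 CPM per kb, without overlap. Below these, Aldh3a2, Aldh6a1 and Aldh1b1 lay between 3.16 and 9.20 CPM per kb in every group, with overlapping libraries among some neighbours. At the low end Aldh3b1 had 0.308 to 0.953 CPM per kb as group means.

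The place of Aldh1a1 in this order depended on the source. By group mean it stood at rank 5 of 10 in both marrow groups, at 9.25 ± 1.12 CPM per kb in WT and 12.2 ± 1.17 in ETV6-RUNX1, above Aldh3a2 in all libraries of its group. In ETV6-RUNX1 marrow its libraries overlapped those of Aldh7a1 (15.4 ± 2.81 CPM per kb), so that ranks 4 and 5 are not resolved there. In fetal liver it had 0.0225 ± 0.0337 CPM per kb in WT, the lowest of the 10, and 0.0768 ± 0.0788 in ETV6-RUNX1, the last but one, and its libraries overlapped those of Aldh1a7 in both. Aldh2 alone made up 16.5% to 38.3% of the summed per-length level of the 10 genes in WT marrow, 41.1% to 52.8% in ETV6-RUNX1 marrow, 29.1% to 38.8% in WT fetal liver and 36.8% to 51.5% in ETV6-RUNX1 fetal liver.

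**Figure D1:**
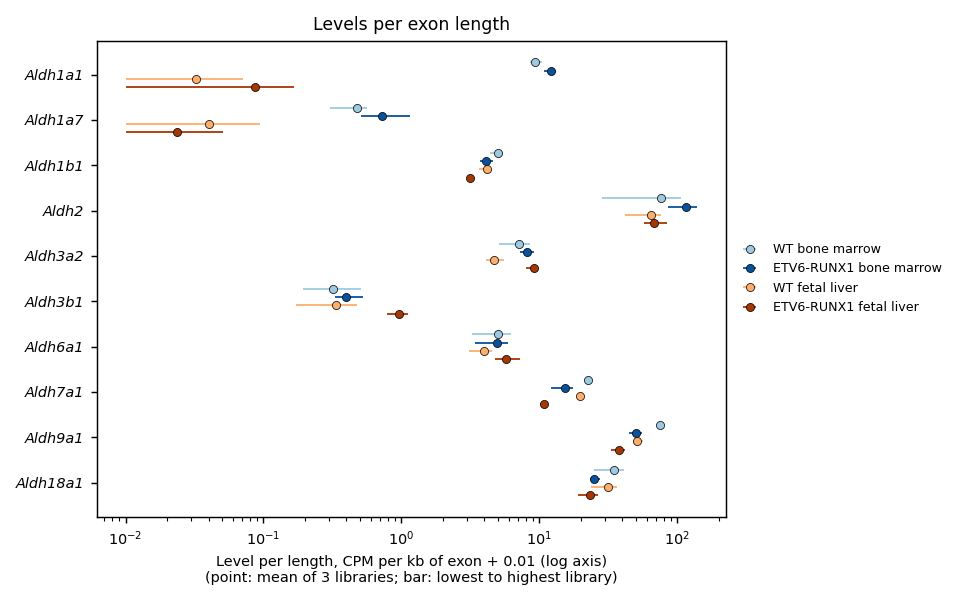
Level of each aldehyde dehydrogenase gene per exon length, as CPM per kilobase of exon plus 0.01 on a log axis, by group of 3 libraries (points are means, bars run from the lowest to the highest library). Aldh2, Aldh9a1, Aldh18a1 and Aldh7a1 lead in all groups, and Aldh1a1 and Aldh1a7 drop in both fetal liver groups.

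Aldh1a1 (ENSMUSG00000053279, chromosome 19, 20492715 to 20643465, plus strand, GRCm38) encodes a cytosolic enzyme that oxidizes retinaldehyde to retinoic acid and is a main retinaldehyde dehydrogenase of adult tissues. Its level was 42.9, 52.0 and 42.1 CPM in WT bone marrow and 53.8, 65.2 and 61.1 CPM in ETV6-RUNX1 bone marrow. In fetal liver it was 0.303, 0 and 0.0310 CPM in WT (14, 0 and 2 reads) and 0.777, 0 and 0.360 CPM in ETV6-RUNX1 (37, 0 and 12 reads). Every marrow library was far above every fetal library, and 1 library of each fetal group had no read. The ratio of marrow to fetal liver means was 410.5 in WT and 158 in ETV6-RUNX1, each resting on few fetal reads. Single fetal libraries moved both ratios. Without WT fetal liver replicate 1, 2 reads were left in that group, and the marrow mean was 2836 times their pooled level (95% exact Poisson interval 785 to 23420, counting error only), while without WT replicate 2 the ratio of means was 274. In ETV6-RUNX1 it was 333 without fetal liver replicate 1 and 106 without replicate 2. These values chose the family and are a description.

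Aldh1a7 (ENSMUSG00000024747, chromosome 19, 20692953 to 20727562, minus strand) is a rodent relative of Aldh1a1. It was at 0.609, 1.15 and 1.15 CPM in WT marrow and 1.03, 2.35 and 1.05 CPM in ETV6-RUNX1 marrow. Fetal liver gave 8, 1 and 0 reads in the WT libraries and 4, 0 and 0 in the ETV6-RUNX1 libraries, so that 4 of these 6 libraries were at or below the floor. The longest coding transcripts of Aldh1a1 and Aldh1a7 were 89.5% identical over 2017 aligned bases, yet only 1 of 2259 windows of 100 bases in Aldh1a1, and 1 of 1967 in Aldh1a7, occurred in the other. How the authors' counting treated reads that match both is not given in the sources used here, so the low Aldh1a7 values are uncertain. Aldh1a7 held 1.4% to 2.65% of the pair's reads in WT marrow libraries and 1.69% to 3.48% in ETV6-RUNX1 marrow libraries.

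Across the 12 libraries the pattern most like that of Aldh1a1 among 10100 candidate genes was that of Lair1, an inhibitory collagen receptor of leukocytes, and Galnt6, a glycosyltransferase that starts mucin-type O-glycans (Pearson's r of log2(CPM + 1) 0.99 for both). Cerkl (0.986), the MHC class II gene H2-Ab1 (0.985) and Sdsl (0.985) came next. Galnt6 went from 51.0 CPM in WT marrow to 0.621 CPM in WT fetal liver, and Lair1 from 50.6 to 7.28 CPM. Among the members r with Aldh1a1 was 0.93 for Aldh1a7, 0.62 for Aldh9a1 and 0.59 for Aldh1b1, and from -0.42 (Aldh3b1) to 0.38 (Aldh2) for the rest. These r are descriptions over libraries that fall into marrow and fetal clusters.

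The other members differed far less between sources. In WT, Aldh1a1, Aldh1a7, Aldh7a1 and Aldh9a1 were lower in all 3 fetal liver libraries than in all 3 marrow libraries, 4 members of 10. Over all 14271 genes tested, 29.5% did not overlap in this contrast, 18.9% lower and 10.6% higher in fetal liver. Without WT bone marrow replicate 1 the count was 9 of 10. In ETV6-RUNX1 cells 7 members did not overlap: Aldh1a1, Aldh1a7, Aldh1b1, Aldh2, Aldh7a1 and Aldh9a1 were lower in fetal liver, and Aldh3b1 was higher. The background there was 42.2%, with 27.8% lower and 14.4% higher. With median-of-ratios scaling the count was 3, and no background was computed for that scaling. The ratio of marrow to fetal liver means for Aldh9a1 was 1.46 in WT and 1.33 in ETV6-RUNX1, and for Aldh7a1 1.13 and 1.42.

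**Figure D2:**
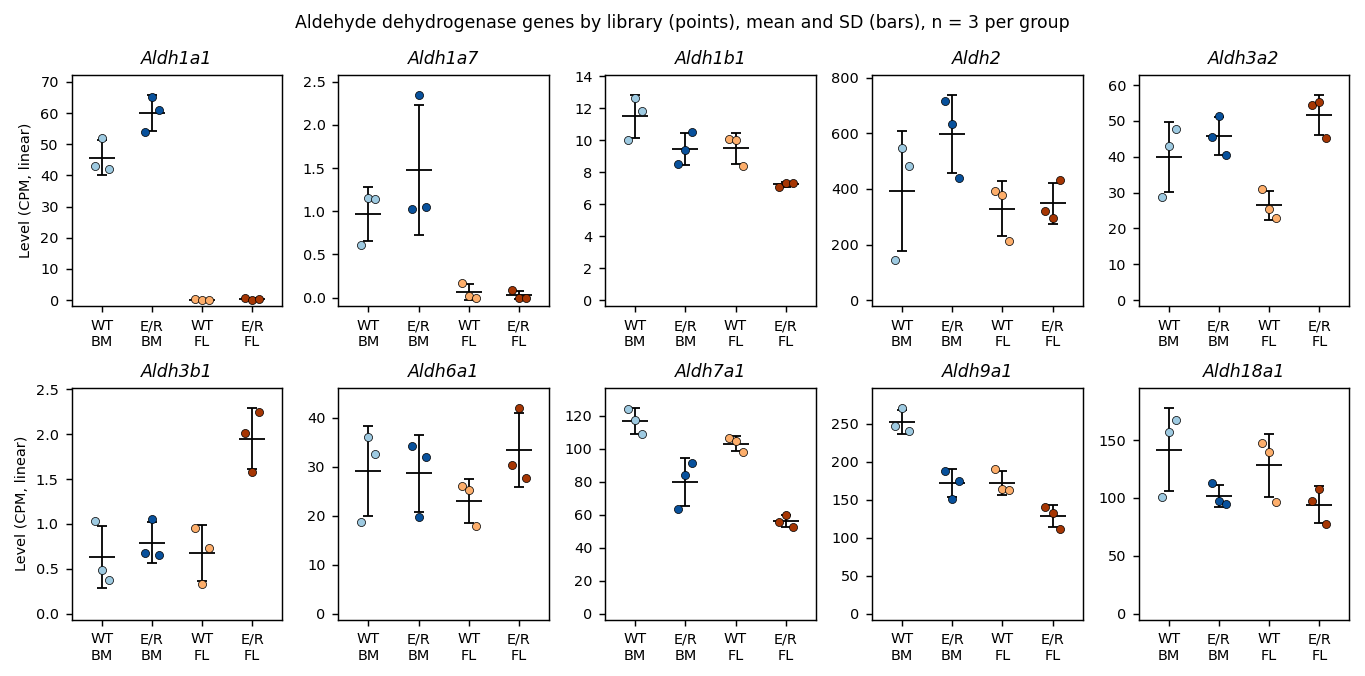
Levels (CPM, linear axes that start at 0 apart from a margin) of the 10 aldehyde dehydrogenase genes in each of 12 libraries, as points, with the mean and SD of the 3 libraries of each group. Aldh1a1 separates marrow (BM) from fetal liver (FL), Aldh3a2 and Aldh3b1 are high in ETV6-RUNX1 (E/R) fetal liver against WT fetal liver, and Aldh7a1 and Aldh9a1 are lower in E/R than in WT of the same source.

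The genotype comparison asked whether the fusion changed gene expression in cells of each age. In fetal liver 4 of the 10 genes changed: the lipid-aldehyde enzymes Aldh3a2 and Aldh3b1 rose, and Aldh7a1 and Aldh9a1, enzymes of lysine and carnitine metabolism, fell. Aldh3b1 reached 1 CPM in all 3 ETV6-RUNX1 fetal liver libraries and in 2 of the other 9, so it passed the filter through the group where it was high, and its call adds no support to the count. The other 6, among them Aldh1a1, Aldh2 and Aldh1b1, did not pass the test (limma, Benjamini-Hochberg adjusted p under 0.05). Of all 14271 genes tested, 43.1% were called in this comparison, 24.8% higher and 18.3% lower, so the members' share was near the background. The median log2 difference was 0.04 over the members and 0.08 over all genes tested. In 6 members the groups did not overlap, 3 higher and 3 lower in ETV6-RUNX1, against 55.6% of all genes (32.3% higher and 23.3% lower).

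Aldh3a2 (ENSMUSG00000010025, chromosome 11, 61223417 to 61267464, minus strand) encodes the fatty aldehyde dehydrogenase of the endoplasmic reticulum, whose loss causes Sjögren-Larsson syndrome in humans. It was at 31.0, 25.4 and 23.1 CPM in WT fetal liver and 54.3, 55.4 and 45.3 CPM in ETV6-RUNX1 fetal liver. All fusion libraries were above all WT libraries, a ratio of means of 1.95. The log2 difference was 0.94 ± 0.19 (SE), with a limma adjusted p of 0.00117. In marrow its libraries overlapped, at 28.8, 43.1 and 47.8 CPM in WT and 45.4, 51.3 and 40.6 CPM in ETV6-RUNX1.

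Aldh3b1 (ENSMUSG00000024885, chromosome 19, 3913491 to 3929808, minus strand) oxidizes aldehydes from lipid peroxidation. It was low throughout, at 0.951, 0.335 and 0.729 CPM in WT fetal liver and 2.02, 1.58 and 2.25 CPM in ETV6-RUNX1 fetal liver, from 20 to 96 reads a library. The fetal groups did not overlap, and the ratio of means was 2.90. On the log2(CPM + 1) scale, which understates changes of low genes, the difference was 0.83 ± 0.21 (SE; limma adjusted p = 0.00596). Among all 29278 genes with reads, without the filter, the adjusted p was 0.0137. In marrow the groups overlapped, with 0.374 to 1.03 CPM in WT and 0.650 to 1.05 CPM in ETV6-RUNX1. It shared 0.44% of its 100-base windows with Aldh3b3, which had at most 6 reads in any library.

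Aldh7a1 (ENSMUSG00000053644, chromosome 18, 56509687 to 56572951, minus strand), also called antiquitin, oxidizes the semialdehyde formed in lysine breakdown. It was at 106, 105 and 97.8 CPM in WT fetal liver and 55.7, 59.8 and 52.6 CPM in ETV6-RUNX1 fetal liver, a narrow spread in both groups with a wide gap between them. The log2 difference was -0.87 ± 0.14 (SE; limma adjusted p = 0.000242). The gene overlaps exons of Phax on the opposite strand, with which it shares 2.65% of its 100-base windows. Whether the authors' counting used strand is not given in the sources used here.

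Aldh9a1 (ENSMUSG00000026687, chromosome 1, 167349991 to 167368532, plus strand) oxidizes trimethylaminobutyraldehyde on the way to carnitine, the carrier of fatty acids into mitochondria. Its fetal levels were 191, 164 and 162 CPM in WT and 141, 133 and 112 CPM in ETV6-RUNX1. The groups did not overlap, and the log2 difference was -0.42 ± 0.13 (SE; limma adjusted p = 0.0179). The call was lost without WT fetal liver replicate 1 (adjusted p = 0.0714) or without ETV6-RUNX1 fetal liver replicate 3 (0.0787), within a range of 0.00318 to 0.375 over 24 alternatives.

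All 4 fetal calls were lost when the summed level of the 4 Y-linked genes was added to the model as a covariate, with adjusted p from 0.217 (Aldh7a1) to 0.640 (Aldh3b1) and the directions kept. The log2 differences in that fit were -0.49 for Aldh9a1 and -0.67 for Aldh7a1, against -0.42 and -0.87 without the covariate, and 0.42 for Aldh3a2 and 0.47 for Aldh3b1, against 0.94 and 0.83. That fit called 5.94% of all genes. The Y-linked level did not overlap between the fetal genotypes, so its part and that of genotype in the fetal values cannot be told apart. Xist overlapped between these genotypes, and the part of sex composition was not tested. The part in these values of the other cell types' transcripts, which differed between the fetal genotypes, was not tested.

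In the other fetal members the differences did not pass the test. Aldh1a1 had a log2 difference of 0.28 (95% confidence interval -0.22 to 0.79; limma adjusted p = 0.321), and was called with array weights (0.52; 0.0304), 1 of 24 alternatives, within a range of 0.0304 to 0.935. Aldh1a7 had -0.05 (-0.54 to 0.45; 0.881). Aldh2 (ENSMUSG00000029455, chromosome 5, 121566027 to 121593824, minus strand), the mitochondrial enzyme that clears acetaldehyde, was at 393, 379 and 214 CPM in WT and 319, 294 and 432 CPM in ETV6-RUNX1, overlapping groups with a difference of 0.12 (-0.79 to 1.03). That interval holds changes of either sign. Its mitochondrial relative Aldh1b1 (ENSMUSG00000035561, chromosome 4, 45799022 to 45804604, plus strand) was at 10.1, 10.04 and 8.39 CPM in WT and 7.08, 7.34 and 7.35 CPM in ETV6-RUNX1. The Aldh1b1 groups did not overlap, but the difference of -0.34 (-0.73 to 0.04) missed the threshold (limma adjusted p = 0.113). It was called by edgeR (adjusted p = 0.0386) and DESeq2 (0.0311), with array weights (0.0265) and with quantile normalization (0.00758), within a range of 0.00758 to 0.783 over 24 alternatives.

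Both remaining enzymes act on amino acids. Aldh6a1 (ENSMUSG00000021238, chromosome 12, 84430717 to 84451004, minus strand), which oxidizes methylmalonate semialdehyde in valine breakdown, was at 26.1, 25.2 and 17.8 CPM in WT and 30.4, 41.9 and 27.7 CPM in ETV6-RUNX1 fetal liver. These groups did not overlap, and the difference of 0.51 (-0.10 to 1.13) had a limma adjusted p of 0.135. Aldh18a1 (ENSMUSG00000025007, chromosome 19, 40550257 to 40588463, minus strand), the synthase that makes the precursor of proline and ornithine from glutamate, was at 148, 140 and 96.9 CPM in WT and 97.7, 108 and 77.2 CPM in ETV6-RUNX1. The Aldh18a1 groups overlapped through WT replicate 3, and the difference was -0.43 (-0.90 to 0.05; limma adjusted p = 0.107). Without WT fetal liver replicate 3 it was called (0.0366), as it was without WT bone marrow replicate 1 (0.0468), by edgeR (0.0316), by DESeq2 (0.0266), with array weights (0.0205), with median-of-ratios (0.0378) or quantile (0.0459) scaling and with the pseudogene share as a covariate (0.000973), within a range of 0.000973 to 0.459.

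**Figure D3:**
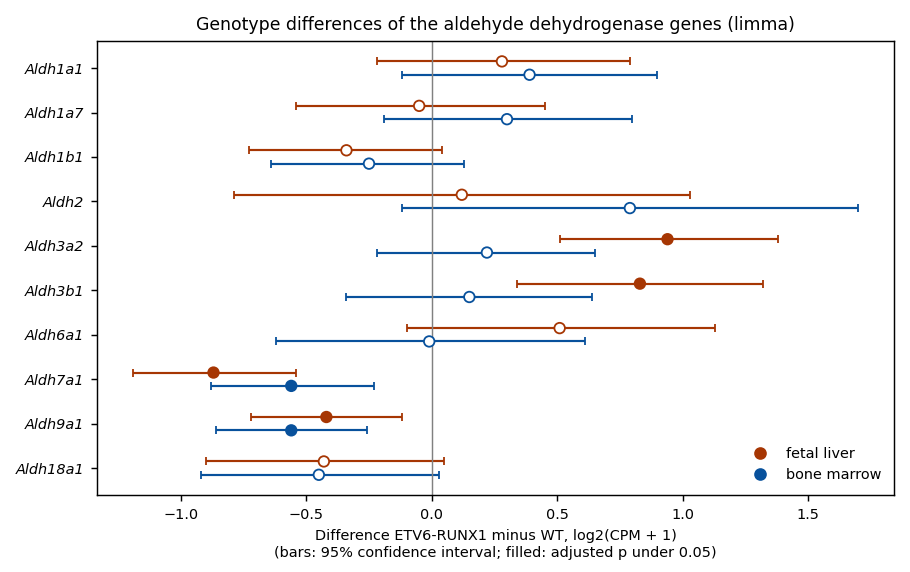
Difference of ETV6-RUNX1 minus WT for each aldehyde dehydrogenase gene on the log2(CPM + 1) scale, in fetal liver and bone marrow, with 95% confidence intervals from limma over 12 libraries. Filled points have an adjusted p under 0.05: Aldh3a2, Aldh3b1, Aldh7a1 and Aldh9a1 in fetal liver, and Aldh7a1 and Aldh9a1 in marrow. The scale understates changes of low genes, here Aldh1a1 in fetal liver and Aldh1a7 and Aldh3b1 in both sources.

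In bone marrow 2 of the 10 genes changed with the fusion, Aldh7a1 and Aldh9a1, and both fell. Of all genes tested 19.4% were called in marrow, 14.4% higher and 4.93% lower. The median difference was 0.07 over the members and 0.13 over all genes. In 3 members the groups did not overlap (1 higher, 2 lower), against 34.5% of all genes (23.6% higher, 10.9% lower). Scaling moved the centre of this comparison: the median of all genes was 0.13 in the deposited values, 0 after median-of-ratios scaling and -0.04 with quantile normalization, and both genes were lower and called under each. The split of all calls moved with it, from 2059 higher and 704 lower to 1432 and 1397 with median-of-ratios scaling. In fetal liver that split was 3544 higher and 2607 lower, and 2717 and 3746 with quantile normalization.

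Aldh7a1 was at 124, 117 and 109 CPM in WT marrow and 63.5, 84.4 and 91.5 CPM in ETV6-RUNX1 marrow. The groups did not overlap, and ETV6-RUNX1 replicate 1 was the lowest library. The log2 difference was -0.56 ± 0.14 (SE; limma adjusted p = 0.0146). The call was lost without ETV6-RUNX1 bone marrow replicate 1 (adjusted p = 0.0650), with the Y-linked covariate (0.0670) and in a fit of the 6 marrow libraries alone (0.0623), within a range of 0.00133 to 0.0670. Neutrophil, macrophage, and mast cell and basophil markers also differed between the marrow genotypes, and their part in the marrow values was not tested.

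Aldh9a1 was at 247, 271 and 240.0 CPM in WT marrow and 188, 151 and 175 CPM in ETV6-RUNX1 marrow. All fusion libraries were below all WT libraries, with a log2 difference of -0.56 ± 0.13 (SE; limma adjusted p = 0.0101). Without ETV6-RUNX1 bone marrow replicate 2 the adjusted p was 0.0501, the highest of 24 alternatives, the lowest being 7.25e-05.

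Aldh1a1 was above WT in all 3 ETV6-RUNX1 marrow libraries, by a ratio of means of 1.31, but the difference of 0.39 (-0.12 to 0.90) was not called (limma adjusted p = 0.227) and was called under none of 24 alternatives (0.145 to 0.918). Aldh2 was at 145, 547 and 483 CPM in WT marrow and 715, 634 and 441 CPM in ETV6-RUNX1 marrow. WT replicate 1 was the low library, and without it the WT values lay within the range of the fusion values. Its difference of 0.79 (-0.12 to 1.70) had a limma adjusted p of 0.173. It was called with processed pseudogene content as a covariate (1.36; 0.0285), 1 of 24 alternatives, over which the difference ran from 0.19 to 1.36 and the adjusted p from 0.0285 to 0.661. Aldh18a1 was at 101, 157 and 168 CPM in WT and 113, 97.5 and 94.7 CPM in ETV6-RUNX1. Here too WT replicate 1 was low, and the difference of -0.45 (-0.92 to 0.03; limma adjusted p = 0.140) was called without it (-0.67, 0.0285), by edgeR (0.0317), by DESeq2 (0.0138), with array weights (0.0315) and with median-of-ratios scaling (0.0340), within a range of 0.0138 to 0.847. Differences of the remaining 5 members in marrow lay between -0.25 (Aldh1b1) and 0.30 (Aldh1a7), with adjusted p from 0.304 to 0.988. Among these Aldh3a2 was called with the pseudogene covariate (0.57; 0.0134) and Aldh1b1 with quantile normalization (-0.56; 0.0301), each in 1 of 24 alternatives.

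None of the 10 genes had a genotype effect that differed between the sources by limma's interaction term, against 9.19% of all genes (5.56% higher in fetal liver, 3.62% lower, or 794 and 517 genes, and 1014 and 347 with median-of-ratios scaling). An unadjusted p under 0.05 was reached by 2 genes, Aldh3a2 and Aldh3b1. For Aldh3a2 the fetal effect exceeded the marrow effect by 0.73 ± 0.27 (SE) on the log2 scale, with an adjusted p of 0.101, and for Aldh3b1 by 0.68 ± 0.30 (0.164). edgeR called 0 of the 10 and DESeq2 called 1, Aldh3a2 (adjusted p = 0.0226), against 7.74% and 12.4% of all genes. Aldh3a2 was called without WT bone marrow replicate 1 (0.0137) and with array weights (0.00605) as well, within a range of 0.00605 to 0.951. For Aldh7a1 and Aldh9a1 the difference of effects was -0.31 (-0.77 to 0.15) and 0.14 (-0.29 to 0.56), so that unequal falls of that size are not resolved.

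The 11 other aldehyde dehydrogenase genes of the table were mostly low, and 6 passed the filter. Aldh1l1, which oxidizes formyltetrahydrofolate, rose in fetal liver, where it was at 53.7, 33.6 and 35.1 CPM in WT and 84.1, 76.1 and 68.4 CPM in ETV6-RUNX1 (log2 difference 0.91 ± 0.18 SE; limma adjusted p = 0.00126). Aldh5a1, the succinate semialdehyde dehydrogenase of GABA breakdown, fell there from 0.488 ± 0.0606 to 0.0739 ± 0.0939 CPM (SD, n = 3; limma adjusted p = 0.0469). Every fetal liver library was under 1 CPM, so the gene passed the filter through marrow libraries. The call rested on 2, 10 and 0 reads in the ETV6-RUNX1 fetal liver libraries, 2 of which were at or below the floor. That call was lost in 11 of 23 alternatives, among them the fits without WT bone marrow replicate 1 or 2, ETV6-RUNX1 bone marrow replicate 1, any WT fetal liver library, or ETV6-RUNX1 fetal liver replicate 1 or 3 (adjusted p up to 0.126). Aldh16a1 rose in marrow from 34.1 ± 7.43 to 53.3 ± 2.03 CPM (limma adjusted p = 0.0179), a call lost without WT bone marrow replicate 1 or ETV6-RUNX1 bone marrow replicate 2 (up to 0.0587). Aldh4a1, which completes proline breakdown, Aldh3a1 and Aldh1l2 were not called in either source, with group means of 9.30 to 13.1, 1.08 to 1.51 and 0.248 to 1.17 CPM.

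The other retinaldehyde dehydrogenases did not pass the filter. Aldh1a3 was at 0.908, 1.05 and 1.12 CPM in WT fetal liver and 0.231, 0.0898 and 0.0900 CPM in ETV6-RUNX1 fetal liver, without overlap, and at 0.114 to 0.866 CPM in marrow. Aldh1a2, named after its values were seen, had 48, 5 and 29 reads in the ETV6-RUNX1 fetal liver libraries (0.0898 to 1.01 CPM) and 6 reads in the other 9 libraries together, 5 of them in WT bone marrow replicate 3. Its fetal genotype groups did not overlap.

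Genes that act beside these enzymes were read from lists, given here by their counts, medians and examples. The background was 24.8% of all genes called up and 18.3% called down in fetal liver, and 14.4% up and 4.93% down in marrow. Retinoid genes (13 tested of 30) gave 2 calls higher (15.4%) and 1 lower (7.69%) in fetal liver and 4 higher (30.8%) and 0 lower in marrow, with medians of 0.18 and 0.42 against 0.08 and 0.13 over all genes. Their called share in fetal liver, 23.1%, was below the 43.1% of all genes. The retinoid receptor Rxrb rose in marrow from 31.2 ± 1.91 to 50.3 ± 2.29 CPM (limma adjusted p = 0.00588), and the retinoic acid receptor Rarg from 5.63 ± 1.45 to 11.6 ± 2.42 CPM (0.00855). Rdh10, which makes retinaldehyde, was called in marrow as well (log2 difference 0.59 ± 0.19 SE; 0.0444), but in only 5 of 24 alternatives, and not on leaving out any library other than ETV6-RUNX1 bone marrow replicate 3 and ETV6-RUNX1 fetal liver replicate 2 (up to 0.168). In fetal liver Rdh12 (0.57 ± 0.20; 0.0294) and Rarb (0.72 ± 0.26; 0.0383) rose and Dhrs4 (-0.46 ± 0.16; 0.0344) fell. Rarb was low there, at 0.477 ± 0.166 CPM in WT and 1.55 ± 1.06 CPM in ETV6-RUNX1, with 55, 153 and 25 reads in the fusion libraries. It was under 1 CPM in every WT fetal liver library and passed the filter mainly through ETV6-RUNX1 libraries. Rdh12 was lost without WT replicate 1 or ETV6-RUNX1 replicate 2 or 3 of fetal liver (up to 0.133), Rarb without any WT library or ETV6-RUNX1 replicate 1 or 2 of fetal liver (up to 0.184) and Dhrs4 without WT replicate 2 or 3 or ETV6-RUNX1 replicate 1 or 2 (up to 0.142). Over all alternatives these calls were lost in 9 of 24 for Rdh12, 10 of 23 for Rarb and 8 of 24 for Dhrs4.

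Other enzymes that clear aldehydes (17 tested of 18) gave 1 call higher (5.88%) and 7 lower (41.2%) in fetal liver, against 24.8% and 18.3% of all genes, and 1 higher (5.88%) and 4 lower (23.5%) in marrow, against 14.4% and 4.93%. The medians were -0.41 and -0.23. Park7, a redox-sensitive protein linked to glyoxal defence, fell in fetal liver from 651 ± 70.1 to 282 ± 10.8 CPM (log2 difference -1.20 ± 0.16 SE; limma adjusted p = 4.55e-05). Glo1, which detoxifies methylglyoxal, fell from 159 ± 7.42 to 96.0 ± 9.95 CPM in fetal liver (0.000425) and from 163 ± 12.1 to 116 ± 12.4 CPM in marrow (0.0170). The aldose reductase Akr1b3 fell in fetal liver (-0.56 ± 0.12; 0.00229) and in marrow (-0.49 ± 0.12; 0.0143), and Ptgr1, which reduces unsaturated aldehydes and ketones, in marrow (-0.67 ± 0.21; 0.0381). In marrow Glo1 was lost without ETV6-RUNX1 replicate 2 (0.0776), Akr1b3 without ETV6-RUNX1 replicate 1 or 2 (up to 0.0592) and Ptgr1 without those, WT bone marrow replicate 1 or 2 or WT fetal liver replicate 1 (up to 0.160).

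Genes of Fanconi anemia repair, which unhooks DNA crosslinks such as those made by aldehydes, were all 22 tested. In fetal liver 4 were called, all lower (18.2%), a share near the 18.3% of all genes called lower there. With 0 called higher, against 24.8% of all genes, their called share was below the 43.1% of all genes. In marrow limma called 0, with 3 at an unadjusted p under 0.05, while edgeR and DESeq2 called 4 each. Over all genes limma called 19.4% in marrow, edgeR 19.2% and DESeq2 23.1%. The medians were -0.15 and -0.10. Faap24 fell in fetal liver from 49.4 ± 5.72 to 27.5 ± 0.883 CPM (limma adjusted p = 0.000573), the ubiquitin ligase Fancl from 33.6 ± 0.819 to 22.6 ± 1.49 CPM (0.00389), and its partner Ube2t from 43.6 ± 7.82 to 26.5 ± 2.09 CPM (0.00574).

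Partner enzymes of Aldh18a1, Aldh6a1 and Aldh7a1 in proline, valine and lysine metabolism (21 tested of 24) gave 0 calls higher and 7 lower (33.3%) in fetal liver, against 24.8% and 18.3% of all genes, and 0 higher and 4 lower (19.0%) in marrow, against 14.4% and 4.93%. The medians were -0.23 and -0.19. Bcat1, which starts the breakdown of branched-chain amino acids, was at 5.43, 9.86 and 6.37 CPM in WT and 0.819, 0.521 and 0.300 CPM in ETV6-RUNX1 fetal liver (log2 difference -2.39 ± 0.24 SE; limma adjusted p = 3.33e-06). Pycr1, which acts after Aldh18a1 to complete proline, fell there from 25.1 ± 1.57 to 7.73 ± 1.32 CPM (2.44e-05). Prodh, which breaks proline down, fell from 105 ± 8.63 to 46.4 ± 9.37 CPM (9.1e-05). In marrow Echs1 (-0.52 ± 0.13; 0.0159), Bcat1 (-0.85 ± 0.24; 0.0241) and Pycr1 (-0.69 ± 0.20; 0.0248) fell. Each of these marrow calls was lost without ETV6-RUNX1 bone marrow replicate 2, that of Pycr1 without WT bone marrow replicate 1 or 3 as well, and that of Bcat1 without those or ETV6-RUNX1 bone marrow replicate 1 (adjusted p up to 0.0750, 0.0907 and 0.106 for Echs1, Bcat1 and Pycr1).

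With the Y-linked covariate the fetal calls of Aldh5a1, Rdh12, Rarb, Dhrs4, Park7, Glo1, Akr1b3, Faap24, Fancl, Ube2t, Pycr1 and Aldh1l1 were lost, while those of Bcat1 (highest adjusted p over 24 alternatives 0.0327) and Prodh (0.0324) held. The log2 differences did not all shrink in that fit. Those of Rdh12 (1.12 against 0.57 without the covariate) and Aldh5a1 (-0.58 against -0.47) were larger. Those of Fancl (-0.52 against -0.56), Rarb (0.62 against 0.72), Park7 (-0.96 against -1.20), Glo1 (-0.57 against -0.72), Akr1b3 (-0.42 against -0.56) and Pycr1 (-1.24 against -1.59) were smaller. Faap24 (-0.41 against -0.82), Aldh1l1 (0.45 against 0.91) and Ube2t (-0.21 against -0.68) moved further, and Dhrs4 changed sign (0.22). In marrow the same covariate ended the calls of Aldh16a1, Rarg, Rdh10, Glo1, Akr1b3, Ptgr1, Echs1, Bcat1 and Pycr1 (adjusted p from 0.0521 for Rarg to 0.139 for Rdh10), with the directions kept, and that of Rxrb held (highest adjusted p over 24 alternatives 0.0318). A fit of the 6 marrow libraries alone ended those of Aldh16a1, Rdh10, Glo1, Akr1b3, Ptgr1, Echs1 and Pycr1 (0.0542 to 0.116).

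**Figure D4:**
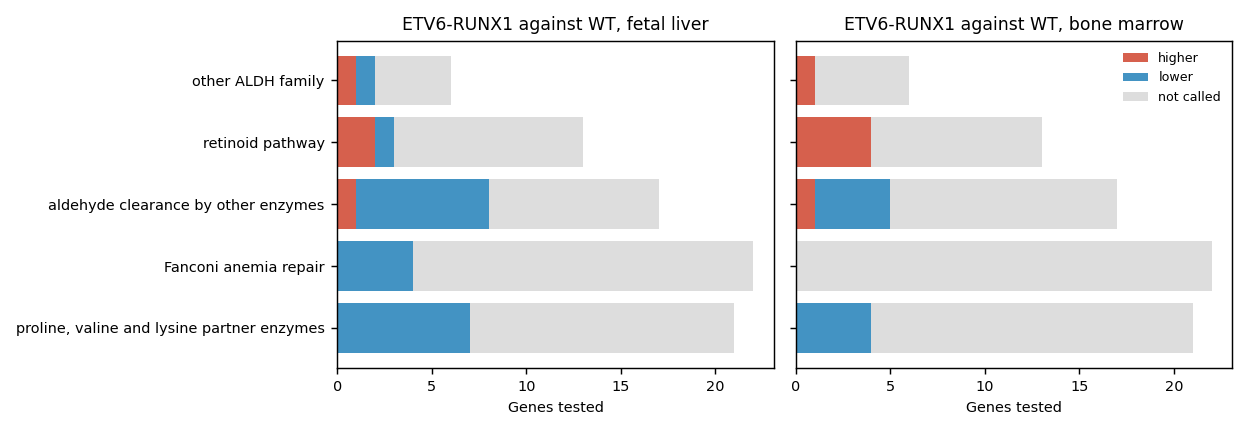
Number of genes tested in each list of related genes (bar length) that were called higher, called lower or not called in ETV6-RUNX1 against WT, in fetal liver (left) and bone marrow (right). Calls in the proline, valine and lysine list were all lower (7 and 4 of 21), and 4 of 22 Fanconi anemia genes were called lower in fetal liver, where 18.3% of all genes tested were called lower (4.93% in marrow).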

How the data were processed

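RNA of 12 libraries (3 in each of 4 groups, from the sample titles) was deposited by the authors as a single table of CPM per gene. Per the submitters' processing notes the tools were bcl2fastq, STAR 2.5.1a, Subread, featureCounts 1.4.6-p5, Salmon 0.8.2, edgeR and limma, and the build GRCm38, with no roles given. The use of strand and the treatment of reads that match several genes are not given in the sources used here. In every library 100% of the CPM values were whole multiples of 1 read (within 0.01 of a read), which gave the totals of 32.3 to 64.5 M reads. The totals set the floor of 3 reads. The table has 40757 entries, 276 of them second entries of a gene ID, which were dropped.

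Tests used limma 3.58.1 (R 4.3.3) on log2(CPM + 1) for the 14271 genes that reached 1 CPM in 3 or more libraries, with 4 group means, 8 residual degrees of freedom, a mean-variance trend, two-sided p and Benjamini-Hochberg adjustment over all genes tested. A call means an adjusted p under 0.05, and rose, fell and changed are used of calls. The script was tested on simulated counts. Other settings were 0.1 as the pseudocount, no gene filter (29278 genes with reads), a mean of at least 5 CPM, median-of-ratios and quantile scaling, a replicate block, array weights, the Y-linked level (Ddx3y, Eif2s3y, Kdm5d and Uty) as a covariate, the processed pseudogene share as a covariate (chosen after seeing the data), edgeR 4.0.16 and DESeq2 1.42.0 on the whole reads, a fit of just the 6 libraries of a source, and leaving out each library.

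Genes named were the 10 members, other aldehyde dehydrogenase genes whose mean reached 1 CPM in any group, up to 3 called genes per list and comparison by smallest p, and the 5 genes most correlated with Aldh1a1. The candidates for these 5 had a group mean of 5 CPM or more, and sex-linked genes and gene models without a name were left out. The members and lists were chosen with earlier results of these data known. Exon lengths, positions and overlaps come from GENCODE M21 (GRCm38), in which 99.65% of gene IDs were found, and promoters from RefSeq. Coordinates are 1-based. Columns of the table were matched to samples by the titles, and none was left out. One list member is not reported here by name, and it stays in the counts of its list.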

Additional observations from a re-analysis of the deposited data

Results flagged for a closer look

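In 5 genes reported here from the related lists the fusion's effect in fetal liver differed from that in bone marrow by limma's interaction term (Benjamini-Hochberg adjusted p over 14271 genes). None of the 10 members is among them.

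Aldh1l1 rose in fetal liver and was at 66.6 ± 12.4 CPM in WT and 62.9 ± 3.95 CPM in ETV6-RUNX1 marrow (SD, n = 3), a difference of effects of 0.98 ± 0.26 (SE, log2; adjusted p = 0.0313). The call was lost in 11 of 23 alternatives, including the fits without WT replicate 2 or 3 of either source, without ETV6-RUNX1 replicate 1 of either source and without ETV6-RUNX1 fetal liver replicate 2 (adjusted p up to 0.0890). Rxrb, a retinoid receptor, was at 31.1 ± 1.4 CPM in WT and 25.1 ± 3.86 CPM in ETV6-RUNX1 fetal liver while it rose in marrow, a difference of -0.98 ± 0.20 (adjusted p = 0.00785).

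Bcat1 fell further in fetal liver than in marrow (-1.54 ± 0.34; adjusted p = 0.0121). Bcat1 and Rxrb kept their calls on leaving out any 1 library (adjusted p up to 0.0379 and 0.0280). The call of Bcat1 was lost in 3 of 23 alternatives, with all genes with reads (0.0580) and with the Y-linked (0.220) or pseudogene (0.0862) covariate, and that of Rxrb in 2 of 23, the same covariates (0.116 and 0.0929).

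Park7 fell in fetal liver, and its effect there was below that in marrow by a difference of -0.79 ± 0.23 (adjusted p = 0.0432), a call lost in 17 of 23 alternatives, among them the fits without any library other than WT bone marrow replicate 1 and ETV6-RUNX1 bone marrow replicate 2 (adjusted p up to 0.113). Hibch, a step of valine breakdown, was at 52.3 ± 0.974 CPM in WT and 64.1 ± 2.25 CPM in ETV6-RUNX1 fetal liver, against 57.2 ± 6.97 and 42.4 ± 4.37 CPM in marrow (0.71 ± 0.19; adjusted p = 0.0289). Its call was lost in 10 of 23 alternatives, among them those without WT replicate 2 or 3 of either source, ETV6-RUNX1 bone marrow replicate 3 or ETV6-RUNX1 fetal liver replicate 1 or 2 (adjusted p up to 0.0727).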

How the results depend on the processing

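Precision was limited by 3 libraries per group and, for Aldh1a1, Aldh1a7 and Aldh3b1 in fetal liver, by few reads. Shares of all genes called in the same fit follow in brackets. In fetal liver, where 4 members were called (43.1%), array weights gave 7 (54.8%) and the Y-linked covariate 0 (5.94%). In marrow, where 2 were called (19.4%), the Y-linked covariate gave 1 (10.1%), only the 6 libraries compared 1 (11.2%), and the pseudogene covariate 4 (27%). For the difference between sources, with 0 called (9.19%), array weights gave 1 (25.5%) and DESeq2 1 (12.4%). Leaving out a library gave 3 to 5 members in fetal liver (32.7% to 46.5%). It gave 1 to 3 in marrow (10.7% to 20.5%) and 0 to 1 for the difference (5.12% to 16.3%). Members without overlap between sources numbered 4 in WT, and 4 to 9 on leaving out a library. In ETV6-RUNX1 they numbered 7, 7 to 8 on leaving out a library and 3 with median-of-ratios scaling. The share of all genes without overlap was not computed in these other settings, and groups with fewer libraries overlap less easily. The causes of these shifts were not tested.

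Signs reversed in effects that were not called, and for Dhrs4. In fetal liver Aldh2 went to -0.55 with the Y-linked covariate, -0.43 with the pseudogene covariate, -0.025 with array weights, -0.0015 in edgeR, and -0.17 and -0.048 without WT or ETV6-RUNX1 replicate 3 (range on leaving out a library -0.17 to 0.27). Aldh1a7 went to 0.014 with array weights and 0.027 without WT replicate 1 (range -0.0882 to 0.027), and Dhrs4 to 0.22 with the Y-linked covariate. In marrow Aldh6a1 went to 0.33 with the pseudogene covariate, and to 0.17, 0.098 and 0.23 without WT replicate 2, WT replicate 3 or ETV6-RUNX1 replicate 2 (range -0.29 to 0.23).

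Among differences between sources, the pseudogene covariate turned Aldh6a1 to -0.15, Aldh9a1 to -0.073 and Aldh18a1 to -0.77. Aldh18a1 was also -0.14 with the Y-linked covariate, and it ran from -0.17 to -0.0086 in the 7 leave-one-out fits that turned it (-0.17, -0.12, -0.085, -0.070, -0.030, -0.013 and -0.0086), with 0.24 as the highest such value. Aldh1a1 went to 0.58 with a pseudocount of 0.1, 0.045 with median-of-ratios scaling, 0.23 with array weights, 1.56 in edgeR, 1.49 in DESeq2, and 0.013 and 0.11 without WT replicate 1 or ETV6-RUNX1 replicate 2 of fetal liver (range -0.31 to 0.11).

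Correlations between libraries of the same replicate number ran from -0.44 to 0.39, with 7 of 18 over 0.1. These r are not of whole profiles, for which the mean r of a library with the others of its group was 0.977 to 0.990. In all, 2 of 12 libraries correlated best with their own number, so the numbers were not taken as pairs. With the replicate block 4, 2 and 0 members were called in fetal liver, marrow and the difference, as without it. The block fit called 40.9%, 16.4% and 7.24% of all genes there. Among the other genes named, the block ended the calls of Aldh5a1 (adjusted p = 0.0625), Dhrs4 (0.0515) and Rarb (0.0580) in fetal liver, of Rdh10 (0.0697) and Ptgr1 (0.0555) in marrow, and of the differences of Aldh1l1 (0.0552), Hibch (0.0568) and Park7 (0.0646).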
